A study of Mus musculus with 12 samples.

Results

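Germline and meiosis genes encode the proteins with which germ cells pair and recombine their chromosomes and hold transposons in check, and most of them are silent in other cells. The 40 genes described here were taken by symbol from a list of such genes, and all 40 are among the 20325 genes measured. They comprise 6 genes of the synaptonemal complex, 4 of the meiotic chromosome axis and cohesin, 4 of meiotic recombination, 8 Argonaute, helicase and partner genes of the piRNA pathway, 8 genes of tudor domain proteins and their partners, 4 of germ cell RNA binding and translation, and 6 other germ cell genes. Their expression was read from RNA sequencing of mouse pre-iPSCs, which are partially reprogrammed clonal lines derived from fibroblasts transduced with retroviral Oct4, Sox2, c-Myc and Klf4. All 12 libraries come from such cells in serum medium without a feeder layer, harvested after 48 h (day 2). The 3 DMSO libraries are the vehicle control, the 3 AA libraries received ascorbic acid at 50 µg per ml, the 3 2i libraries a MEK inhibitor at 1 µM and a GSK inhibitor at 3 µM, and the 3 AA+2i libraries both. The libraries of each condition are biological replicates A, B and C. The lines were picked as colonies and are no germ cells, they were kept on irradiated feeder cells before treatment, and which line gave these libraries is not given in the sources used here.

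In somatic cells many germline promoters lie in CpG-rich DNA that is methylated around implantation and stays methylated, and they are further held down by repressors such as E2F6, the MGA and MAX dimer and H3K9 methyltransferases. AA is a cofactor of the TET dioxygenases, which oxidize methylated cytosine, and of the Jumonji histone demethylases. Piwi proteins bind small piRNAs that guide the silencing of transposons in male germ cells, with tudor proteins as scaffolds. During meiosis the synaptonemal complex holds homologous chromosomes together, and the meiotic cohesins hold sister chromatids together.

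The total of expected counts per library ranged from 16173322 to 54392719, with AA B and DMSO B the deepest. A gene was tested if it reached 10 counts in at least 3 libraries, which 13400 genes did. The libraries differed in base composition, with DMSO A and AA A furthest from the mean. At the GC-rich end, their transcripts lay lower than the mean of the libraries by 2.04 and 1.87 on the log2 scale. Those of AA+2i C, 2i C and AA C lay higher there by 1.47, 1.14 and 0.80, and those of 2i A lower by 0.70. Markers of spermatogonia and spermatids were close to absent. None of the 10 passed the count filter, 5 of them (Sohlh1, Stra8, Prm1, Prm2 and Tnp1) were listed at 0 in every library, and the summed TPM of the list, a unit that is scaled within a library and corrects for gene length, stayed at or below 0.36. The summed TPM of 10 fibroblast markers was 10.05 to 78.5 in DMSO, 14.7 to 44.1 in AA, 10.1 to 14.6 in 2i and 15.3 to 18.3 in AA+2i. The part of these cell types in the results was not tested, and in bulk RNA fewer cells that express a gene and less of its RNA per cell cannot be told apart.

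Of the 40 genes, 11 passed the count filter and 29 did not, so most of the set had few or no counts in all 4 conditions. The values nearest to the filter were those of Sycp3 and Rbm44, with 3 libraries at 10 counts or more, and of Hormad2 and Dmc1, with 2. Rbm44 passed through its AA libraries and Tdrd9 through its 2i and AA+2i libraries, so these genes entered the test by the group in which they were high.

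**Figure D1:**
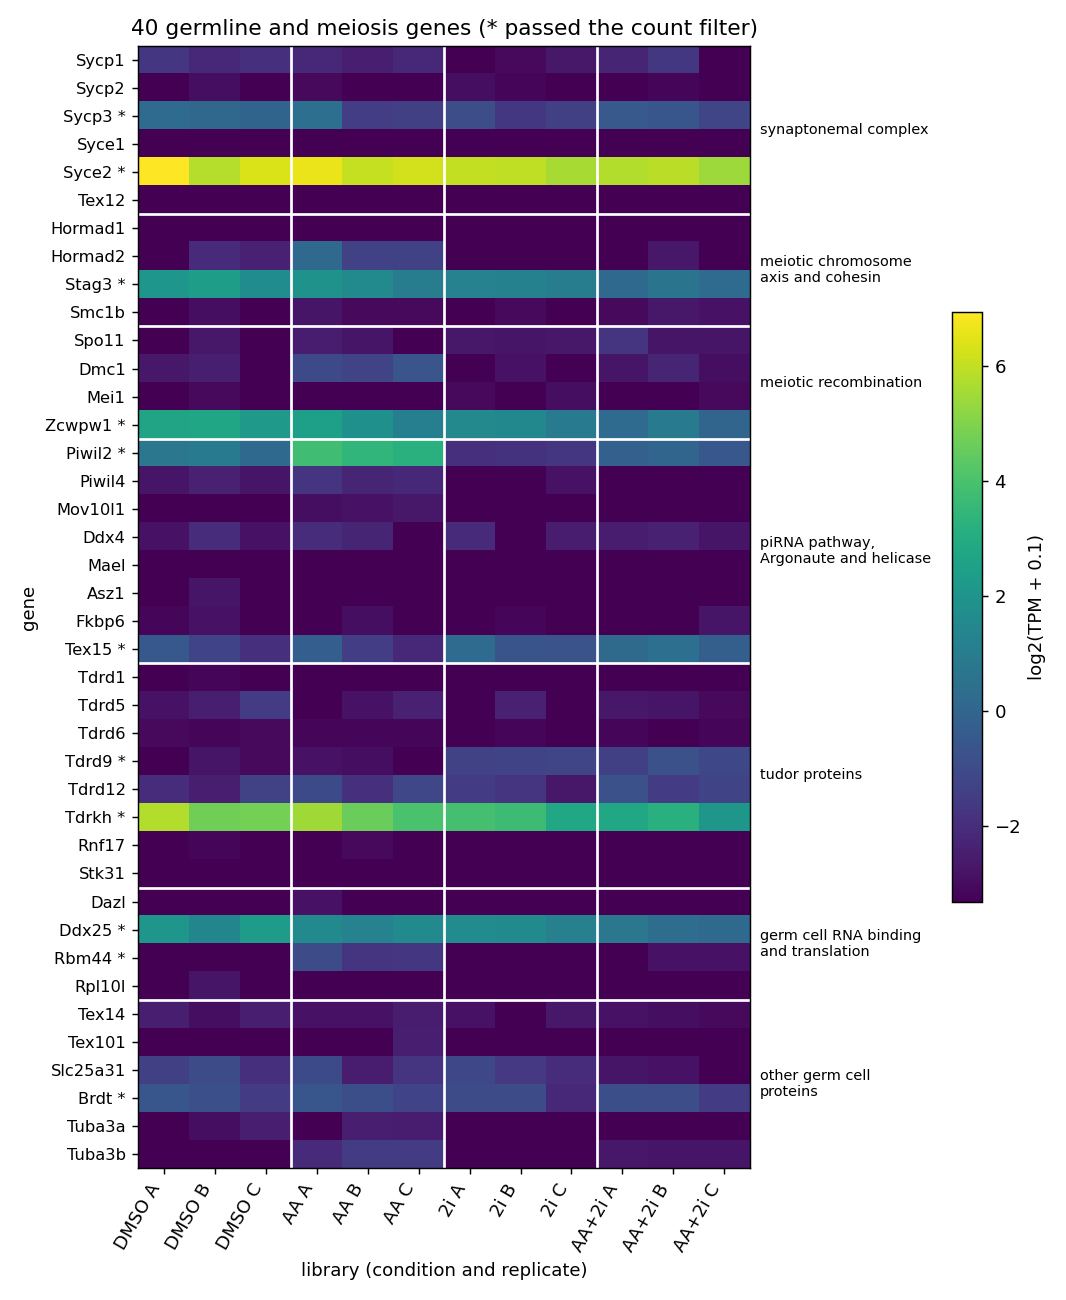
Expression of the 40 germline and meiosis genes in each of the 12 libraries, as log2(TPM + 0.1) by colour, with genes in rows grouped by role and libraries in columns grouped by condition. The row of Syce2 is the brightest, Tdrkh, Stag3 and Zcwpw1 darken from DMSO to AA+2i, Piwil2 is brightest in the 3 AA libraries, and 29 of the 40 rows are dark nearly throughout.

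In the DMSO libraries the 11 genes spanned a wide range of TPM. Syce2, which encodes a central element protein of the synaptonemal complex, was highest with 87.4 ± 34.1 (SD, n = 3), followed by the tudor gene Tdrkh with 35.9 ± 15.3. Zcwpw1 (5.76 ± 1.09), Stag3 (4.18 ± 1.14) and Ddx25 (3.82 ± 1.19) came next, and the ranges of neighbours among these 3 overlapped. Piwil2 (1.48 ± 0.39) and Sycp3 (1.00 ± 0.12) overlapped as well. Brdt stood at 0.43 ± 0.16 and Tex15 at 0.37 ± 0.23, Tdrd9 at 0.02 ± 0.03, and Rbm44 had no count in any DMSO library.

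Which of these genes AA, 2i or both changed was asked with the quasi-likelihood test of edgeR across all tested genes. At an adjusted p under 0.05, 7 of the 11 were called in at least 1 of 6 contrasts, beside 11.4% of all genes tested. The members were chosen with earlier results of these data known, so setting these shares side by side is no test of the set. With AA, 2 genes rose against DMSO, Piwil2 and Rbm44, beside 0.866% of all genes tested that rose. No tested member was called lower with AA, beside 0.47% of all genes. None was lower at an unadjusted p under 0.05, which 1263 of the 13400 tested genes reached in either direction. DESeq2 called none lower, beside 176 of all genes. With 2i, Tdrd9 rose (1.59% of all genes did) and Piwil2 fell (2.83% of all genes). With AA+2i, Tdrd9 rose (3.93% of all genes) and 4 genes fell, namely Tdrkh, Zcwpw1, Stag3 and Ddx25 (4.41% of all genes). These 3 comparisons share the DMSO libraries. Of the called genes, Rbm44 passed the filter only through its AA libraries and Tdrd9 only through its 2i and AA+2i libraries. The filter itself thus favoured their calls as higher. With 10 counts required in every library, Rbm44, Tdrd9 and Piwil2 were not tested, and no member was called higher in any contrast. Leaving out replicate B of every condition, which keeps 2 libraries each, left no member called by edgeR in any contrast, and of all genes 0, 1 and 18 called with AA, 2i and AA+2i.

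Adding 2i to AA lowered Piwil2, Tdrkh, Zcwpw1 and Stag3, beside 3.29% of all genes, and raised Tdrd9, beside 2.81%. Adding AA to 2i raised Piwil2, beside 0.761% of all genes. No member was called lower in that comparison by this edgeR fit or by DESeq2, beside 0.149% of all genes, and 3 were lower at an unadjusted p under 0.05, beside 3.6% of all genes. The median log2 fold change of the tested members was -0.17 in AA, -0.60 in 2i (over 10 members, as Rbm44 had no count on either side) and -0.74 in AA+2i, each against DMSO, beside -0.012, -0.022 and -0.018 over all tested genes. With Rbm44 entered at its value over a floor of 3 counts instead of its fitted value, these medians were the same.

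**Figure D2:**
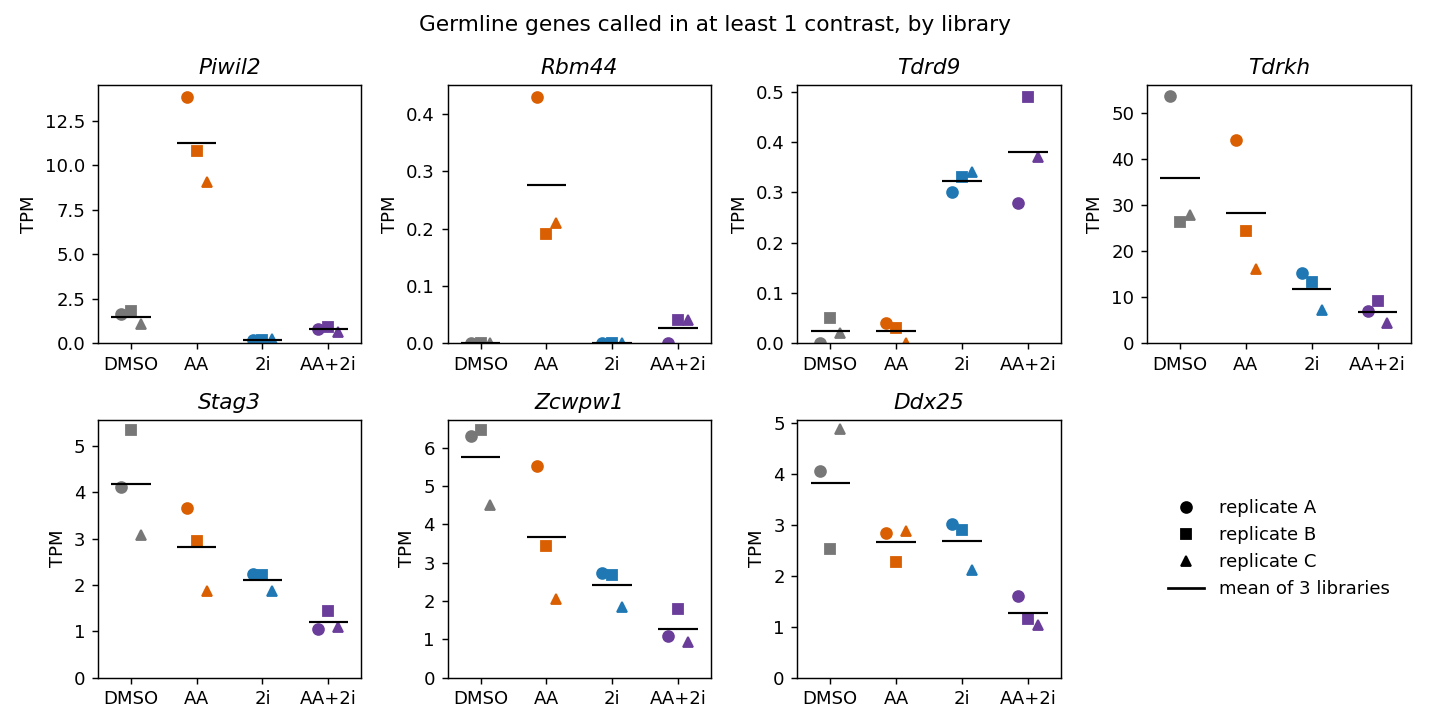
TPM of the 7 genes called in at least 1 contrast, 1 panel per gene with its own axis from 0, by condition. Each point is 1 library, its shape gives the replicate letter, and the line is the mean of 3. Piwil2 and Rbm44 are highest in AA, Tdrd9 is high in 2i and AA+2i, and Tdrkh, Stag3, Zcwpw1 and Ddx25 are lowest on average in AA+2i.

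Piwil2 encodes a Piwi protein that binds piRNAs in male germ cells and lies on the minus strand of chromosome 14 (mm9, chr14:70772287-70828901). It moved in opposite directions with the 2 treatments. Its TPM was 1.60, 1.79 and 1.04 in DMSO A, B and C, and 13.8, 10.8 and 9.05 in AA. In 2i it was 0.16, 0.18 and 0.21, and in AA+2i 0.79, 0.92 and 0.59. The 4 conditions did not overlap, with AA highest, then DMSO, then AA+2i, and 2i lowest. Piwil2 rose 7.75-fold with AA (log2 fold change 2.95, SE 0.26, edgeR adjusted p = 0.00064) and fell by 2.83 on the log2 scale with 2i (SE 0.28, edgeR adjusted p = 0.000471).

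With both agents together, Piwil2 had a log2 fold change of -0.74 against DMSO, with a 95% confidence interval of -1.29 to -0.19, and was not called (edgeR adjusted p = 0.0976). With a correction for GC content it was called lower (-0.65, edgeR adjusted p = 0.0455). Piwil2 was 2.08 higher on the log2 scale in AA+2i than in 2i (SE 0.28, edgeR adjusted p = 0.0064) and fell by 3.70 from AA to AA+2i (SE 0.27, edgeR adjusted p = 5.27e-05). The sum of the 2 single changes was not distinguished from the joint change. The interaction was -0.87 (SE 0.37), with an unadjusted p of 0.0401 and an edgeR adjusted p of 1. Without 2i B, the rise of Piwil2 from 2i to AA+2i was 2.07 and lost its call (edgeR adjusted p = 0.0537). Calls over all genes in that comparison fell from 122 to 33. With only the AA and DMSO libraries fitted, its rise with AA was 2.96 (edgeR adjusted p = 0.0574), and no gene at all was called.

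The other piRNA genes of this group were weakly expressed. Tex15, a partner of the nuclear Piwi protein with a role in DNA methylation of transposons, had a TPM of 0.62, 0.32 and 0.17 in DMSO and of 0.73, 0.26 and 0.13 in AA. It measured 1.12, 0.54 and 0.52 in 2i and 1.06, 1.25 and 0.77 in AA+2i. The AA+2i libraries all lay above the DMSO and AA libraries, but the log2 fold change of 1.67 against DMSO (95% confidence interval 0.36 to 2.98) was not called (edgeR adjusted p = 0.114). Tex15 has a low GC content of 37.4%, and DMSO A and AA A, in which GC-poor transcripts lay higher by 1.01 and 0.83 on the log2 scale, held its highest values in those conditions. With a correction for GC content, Tex15 was called higher with AA+2i (2.42, edgeR adjusted p = 0.000199) and with 2i (1.70, edgeR adjusted p = 0.00284), and DESeq2 called it with AA+2i (1.67, DESeq2 adjusted p = 0.0401). Without DMSO A and AA A, a choice made after seeing the data, it was called in both comparisons as well (2.28 and 1.77, edgeR adjusted p = 0.0113 and 0.0452).

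The genes of tudor proteins moved both ways. Tdrd9, a tudor domain helicase of the piRNA pathway on the plus strand of chromosome 12 (mm9, chr12:113209770-113307065), was near the detection limit in 6 libraries. Its TPM was 0, 0.05 and 0.02 in DMSO and 0.04, 0.03 and 0 in AA, from at most 5 expected counts per library. In 2i it was 0.30, 0.33 and 0.34, and in AA+2i 0.28, 0.49 and 0.37, from 14 to 30 counts. The libraries with 2i were separate from those without it, and AA made no difference that the test resolved. Tdrd9 rose by 3.61 on the log2 scale with 2i (SE 0.65, edgeR adjusted p = 0.0103) and by 3.88 with AA+2i (SE 0.64, edgeR adjusted p = 0.00438). Between AA+2i and 2i its difference was 0.27, with a 95% confidence interval of -0.82 to 1.36. From AA to AA+2i it rose by 4.05 (SE 0.63, edgeR adjusted p = 0.00381).

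Tdrkh, whose tudor and KH domain protein tethers Piwi proteins at mitochondria, lies on the plus strand of chromosome 3 (mm9, chr3:94217218-94236555) and was well expressed. Its TPM was 53.6, 26.4 and 27.8 in DMSO and 44.1, 24.3 and 16.1 in AA. In 2i it was 15.1, 13.2 and 7.12, and in AA+2i 6.87, 9.13 and 4.27. All 6 libraries with 2i lay below all 6 without it. Tdrkh fell by 2.26 on the log2 scale with AA+2i against DMSO (SE 0.44, edgeR adjusted p = 0.0105) and by 1.88 from AA to AA+2i (SE 0.44, edgeR adjusted p = 0.0279). With 2i alone its log2 fold change was -1.46 (95% confidence interval -2.41 to -0.51), which was not called (edgeR adjusted p = 0.0925), and with AA it was -0.37 (-1.30 to 0.56). The change with 2i was called by DESeq2 (-1.46, DESeq2 adjusted p = 0.019) and with a correction for GC content (-1.21, edgeR adjusted p = 0.00486). Without AA+2i C the adjusted p of its change with AA+2i was 0.0551. Of the other 6 genes in this role, Stk31 had no count in any library, and Tdrd1, Tdrd5, Tdrd6, Tdrd12 and Rnf17 stayed below the filter, with Tdrd12 at no more than 8 counts.

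Stag3 and Zcwpw1 were lower in the same conditions as Tdrkh. Stag3 encodes a cohesin subunit specific to meiosis, on the plus strand of chromosome 5 (mm9, chr5:138721468-138753621). Its TPM was 4.11, 5.35 and 3.08 in DMSO and 3.65, 2.95 and 1.87 in AA. In 2i it was 2.23, 2.21 and 1.88, and in AA+2i 1.04, 1.44 and 1.10. The AA+2i libraries lay below the other 9. Stag3 fell by 1.58 on the log2 scale with AA+2i against DMSO (SE 0.27, edgeR adjusted p = 0.00499). It fell by 1.05 from AA to AA+2i (SE 0.27, edgeR adjusted p = 0.0426), a call that was lost on leaving out any of 8 single libraries (AA A, AA B and each library of 2i and AA+2i, edgeR adjusted p 0.0621 to 0.159). The single treatments gave -0.53 with AA (95% confidence interval -1.11 to 0.04) and -0.78 with 2i (-1.37 to -0.20), neither of them called. With a correction for GC content the latter was -0.77 and called (edgeR adjusted p = 0.049).

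Zcwpw1 encodes a reader of the histone marks that PRDM9 leaves at recombination hotspots and lies on the same strand of chromosome 5 (mm9, chr5:138229026-138263849). Its TPM was 6.32, 6.46 and 4.51 in DMSO and 5.54, 3.43 and 2.06 in AA. In 2i it was 2.73, 2.67 and 1.84, and in AA+2i 1.09, 1.78 and 0.93. The AA+2i libraries again lay below the other 9, and the 2i libraries below DMSO. Zcwpw1 fell by 1.97 on the log2 scale with AA+2i against DMSO (SE 0.35, edgeR adjusted p = 0.00597). From AA to AA+2i it fell by 1.34 (SE 0.35, edgeR adjusted p = 0.0446), a call lost without any of 10 single libraries, all but DMSO A and AA C (edgeR adjusted p 0.0566 to 0.177). With 2i alone it had a log2 fold change of -1.06 (95% confidence interval -1.81 to -0.32) and was not called (edgeR adjusted p = 0.122), although DESeq2 (adjusted p = 0.0418) and the fit corrected for GC content (edgeR adjusted p = 0.0323) called it. Exons of Zcwpw1 overlap those of Pilra on the opposite strand, the counting did not use strand, and its expected counts were not whole, so that part of them may be shared.

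Stag3 and Zcwpw1 lie 457618 bases apart, which was noticed after their values were seen. None of the 14 tested genes between them was called in AA+2i against DMSO, and their median log2 fold change was 0.04, with a range of -0.82 to 1.56.

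The remaining meiotic genes that passed the filter were not called. Syce2 measured 124, 55.7 and 83.1 TPM in DMSO, 99.1, 65.3 and 75.2 in AA, 64.7, 62.7 and 48.5 in 2i, and 54.7, 58.3 and 43.7 in AA+2i. Its ranges overlapped between DMSO and each treatment, and its log2 fold change with AA+2i was -0.55 (95% confidence interval -1.21 to 0.11). Sycp3, which forms the lateral elements of the synaptonemal complex, had a TPM of 0.88 to 1.12 in DMSO and of 0.22 to 0.44 in 2i. The log2 fold change with 2i was -1.46 (95% confidence interval -2.77 to -0.16, edgeR adjusted p = 0.24), on 3 to 24.2 counts per library. Exons of Sycp3 overlap those of Chpt1 on the opposite strand. Sycp1, the transverse filament protein, stayed below the filter with at most 9.93 counts, Sycp2 had at most 4, and Syce1, Tex12 and Hormad1 had none in any library.

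Ddx25, a testicular RNA helicase on the minus strand of chromosome 9 (mm9, chr9:35349433-35366055), changed with AA+2i. Its TPM was 4.06, 2.53 and 4.87 in DMSO, 2.84, 2.27 and 2.87 in AA, and 3.02, 2.89 and 2.11 in 2i. In AA+2i it was 1.60, 1.16 and 1.03, below the other 9 libraries. Ddx25 fell by 1.41 on the log2 scale against DMSO (SE 0.33, edgeR adjusted p = 0.0247), whereas AA gave -0.52 (95% confidence interval -1.22 to 0.18) and 2i gave -0.35 (-1.06 to 0.35). The interaction was -0.54 (-1.55 to 0.46), so a joint change larger than the sum of the single ones was not resolved. The call was lost without DMSO A, DMSO C or any 1 of the AA+2i libraries (edgeR adjusted p 0.0506 to 0.1).

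Rbm44 encodes an RNA binding protein of the intercellular bridges between germ cells, on the plus strand of chromosome 1 (mm9, chr1:93041680-93067372). It had 16, 21 and 10 expected counts in AA A, B and C and none in any DMSO or 2i library, and 0, 2 and 2 in AA+2i. The corresponding TPM in AA were 0.43, 0.19 and 0.21. All its AA libraries were thus above every other library, at low levels. With the DMSO group set to a floor of 3 counts over its 3 libraries, the pooled AA counts of Rbm44 were 13.0-fold higher for the library sizes. That figure was not tested and leaves out the counting error of the AA side. The fitted rise with AA, whose size depends on the absence of counts in DMSO, was called (edgeR adjusted p = 0.0473). This call was lost without any 1 of 11 libraries, all but 2i C, with an adjusted p of 0.0523 to 0.186. From AA to AA+2i its log2 fold change was -2.96 (SE 0.77), which was not called (edgeR adjusted p = 0.0793), but was with a correction for GC content (-2.67, edgeR adjusted p = 0.0304) and by limma on log2(TPM + 0.1) (-1.53, limma adjusted p = 0.00672).

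Brdt, the testis-specific BET bromodomain protein, was expressed at 0.13 to 0.57 TPM in the 12 libraries. Its log2 fold changes were 0.08 with AA (95% confidence interval -0.86 to 1.02), -0.22 with 2i (-1.19 to 0.74) and 0.01 with AA+2i (-0.94 to 0.97). No interaction of AA and 2i was called among the members by edgeR or DESeq2, beside 0.0149% of all tested genes called by edgeR in either direction. At an unadjusted p under 0.05 there was 1 member, beside 309 of all 13400 tested genes. By limma on log2(TPM + 1) the interaction of Piwil2 was called lower (-1.72, limma adjusted p = 0.0313), on a scale that compresses its low values.

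**Figure D3:**
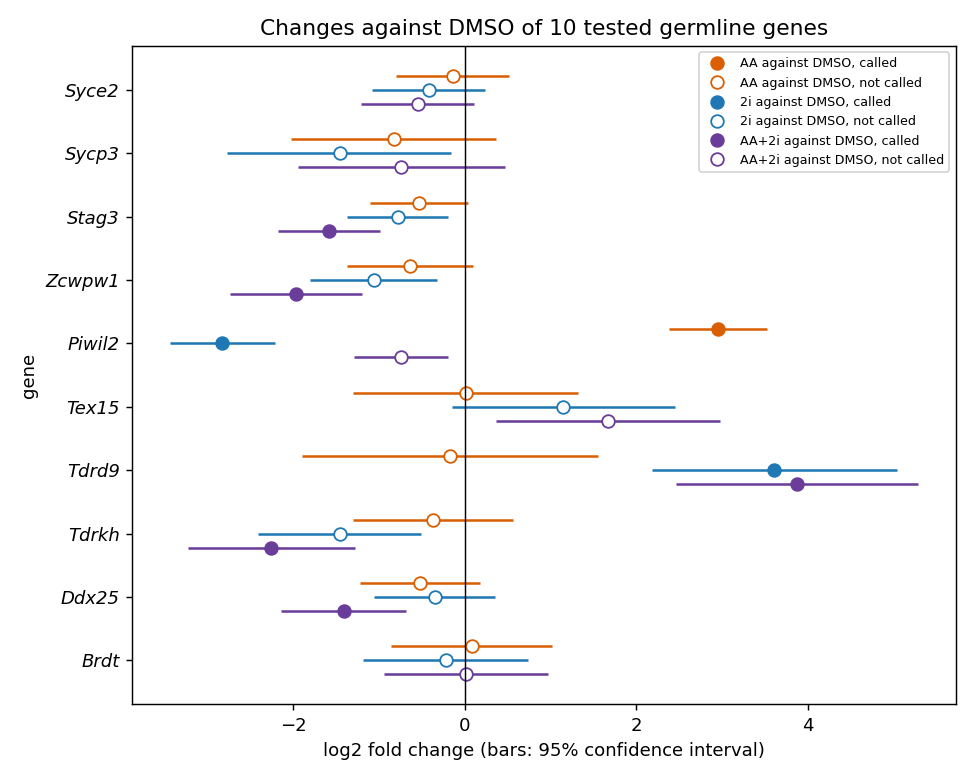
Log2 fold changes against DMSO of 10 of the 11 tested genes (Rbm44 has no count in DMSO and is left out), with AA in orange, 2i in blue and AA+2i in purple. Bars are 95% confidence intervals and filled points are genes called by edgeR at an adjusted p under 0.05. Piwil2 lies at 2.95 with AA and -2.83 with 2i, Tdrd9 lies above 3 with 2i and with AA+2i, and Stag3, Zcwpw1, Tdrkh and Ddx25 are called lower with AA+2i.

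Of the 29 genes below the filter, 5 had no count in any library (Syce1, Tex12, Hormad1, Mael and Stk31). In 12 the highest library held at most 3.23 counts, namely Smc1b, Spo11, Mei1, Asz1, Fkbp6, Tdrd1, Tdrd6, Rnf17, Dazl, Rpl10l, Tex101 and Tuba3a. Among these are Dazl, an RNA binding protein on which germ cell fate depends, with 1 count in AA A, and Spo11, which makes the meiotic double-strand breaks, with at most 3. The highest count was 9 for Ddx4, the germ cell helicase Vasa, 9.93 for Sycp1, 8 for Piwil4, 8 for Tdrd12, 7 for Tdrd5, 6 for Tex14, 4 for Sycp2 and 4 for Mov10l1. The other 4 reached 10 counts in at most 2 libraries, namely Hormad2 with 13, Dmc1 with 20, Slc25a31 with 20 and Tuba3b with 10.8. A gene with no count in a condition could still have a level of up to about 3 counts over its 3 libraries. A gene listed at 0 is therefore not shown to be silent.

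Several of these low genes had most of their counts in AA. Dmc1, the meiotic recombinase, had 8, 20 and 15 counts in AA A, B and C, against 1, 4 and 0 in DMSO, 0, 1 and 0 in 2i, and 1, 3 and 1 in AA+2i. Hormad2, a protein of the meiotic chromosome axis, had 13, 11 and 5 in AA, against 0, 4 and 1 in DMSO, none in 2i and 0, 1 and 0 in AA+2i. Piwil4, a nuclear Piwi protein, had 5, 8 and 4 in AA and 1, 5 and 1 in DMSO, while 1 count was found in all of 2i and none in AA+2i. Mov10l1, the helicase that feeds piRNA precursors into processing, had 1, 4 and 3 in AA and none elsewhere. The AA libraries of Dmc1 and Hormad2 lay above all other libraries in both counts and TPM, though AA B and DMSO B were sequenced more deeply than the rest.

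In the fit without a count filter, the log2 fold change with AA was 2.91 for Dmc1 (SE 0.69, edgeR adjusted p = 0.0832) and 2.46 for Hormad2 (SE 0.85, edgeR adjusted p = 0.347), neither of them called. In the same fit Piwil4 was called lower in AA+2i than in AA (edgeR adjusted p = 0.0378). Tuba3b, a testis alpha tubulin, had 2, 10.8 and 4.79 counts in AA, none in DMSO or 2i and 1 in each AA+2i library. Tuba3a and Tuba3b are near-identical copies, as Rpl10l is of an expressed ribosomal protein gene, so their counts are uncertain. Slc25a31, a testis ADP and ATP carrier, went the other way, with 5, 20 and 3 counts in DMSO and 8, 6 and 3 in 2i against 1, 1 and 0 in AA+2i (edgeR adjusted p = 0.0572 without the filter).

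Summed over the 29 genes, TPM was 1.25 ± 0.30 (SD, n = 3) in DMSO, 2.37 ± 0.67 in AA, 0.70 ± 0.19 in 2i and 0.95 ± 0.25 in AA+2i. The AA libraries (3.07, 1.74 and 2.29) lay above the other 9, which ranged from 0.53 to 1.55. In this sum, Hormad2, Dmc1 and Tuba3b had mean TPM of 0.55, 0.42 and 0.21 in AA, against 0.08, 0.05 and 0 in DMSO. The counts of Tuba3b are uncertain. Other genes of the list were lower in AA, such as Sycp1 (0.11 against 0.17) and Tdrd5 (0.04 against 0.12). The higher sum in AA thus does not show a rise of the group as a whole. The sum is a description of a list and was not tested.

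**Figure D4:**
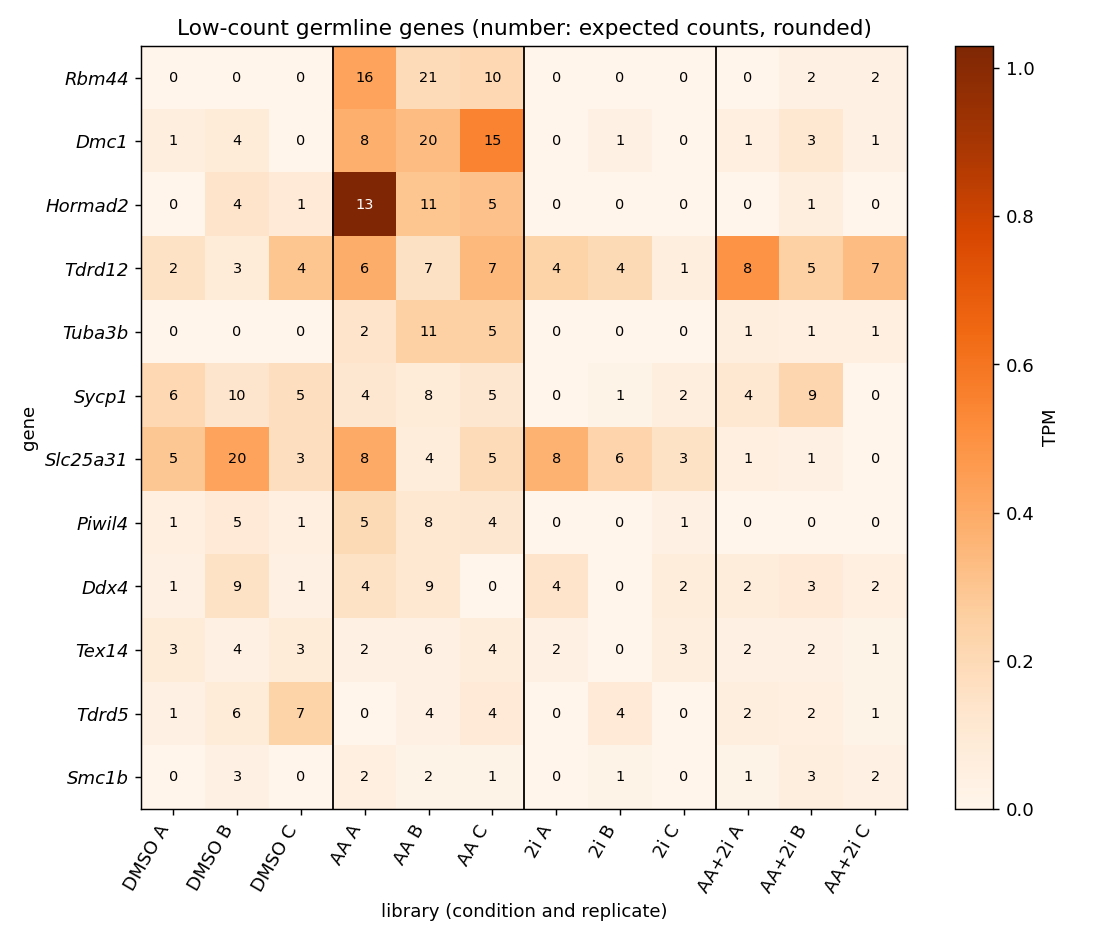
Rbm44 and the 11 genes below the filter with at least 15 expected counts in all, by library. Colour gives TPM and the printed number the rounded expected count. Rbm44, Dmc1, Hormad2 and Tuba3b are darkest in the AA columns, while Slc25a31 is pale in AA+2i.

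Promoter sequence was examined because CpG-rich DNA is where methylation of these genes is known to act, while methylation itself was not measured here. RefSeq promoters (GRCm38.p6, a later build than the mm9 coordinates above) were matched by symbol for 34 of the 40 genes. Spo11, Piwil2, Tex15, Tdrd6, Rnf17 and Rbm44 had no match. In the 250 bases upstream of the start, the 34 genes had a median of 17 CpG dinucleotides, with a range of 6 to 40, against 6 for all 27025 genes of the table. The median was 17.5 in the 8 genes that passed the filter and 17 in the 26 that did not.

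The palindromic E-box CACGTG, a hexamer bound by MGA and MAX among others, occurred in 15 of the 34 promoters (44.1%) and in 6.9% of all genes in the table. Among genes with at least 10 CpG the shares were 50.0% of 28 members and 10.8% of all 10871. The hexamer was present in 5 of the 8 that passed the filter and in 10 of the 26 that did not. The E2F core TCCCGC, sought on both strands, occurred in 14 members (41.2%) and in 18.8% of all genes, or 42.9% of members and 39.7% of all genes with at least 10 CpG. The 2 hexamers cannot overlap each other by more than 1 base. The promoters of the 5 called genes with an entry are shown next for their CpG and E-boxes, with the 4 that fell with AA+2i first and Tdrd9, which rose, last. They are written 5′ to 3′ on the strand of the gene with every CG in capitals, so that an E-box reads caCGtg. For Zcwpw1 the start farther downstream of the 2 listed is shown.
Tdrkh (GRCm38.p6 chr3:94412994-94413243, plus strand): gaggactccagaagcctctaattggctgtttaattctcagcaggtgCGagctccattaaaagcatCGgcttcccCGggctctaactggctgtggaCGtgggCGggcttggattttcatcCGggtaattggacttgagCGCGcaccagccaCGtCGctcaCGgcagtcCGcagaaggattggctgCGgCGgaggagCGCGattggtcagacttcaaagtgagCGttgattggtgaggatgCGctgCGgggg
Zcwpw1 (GRCm38.p6 chr5:137787552-137787801, plus strand): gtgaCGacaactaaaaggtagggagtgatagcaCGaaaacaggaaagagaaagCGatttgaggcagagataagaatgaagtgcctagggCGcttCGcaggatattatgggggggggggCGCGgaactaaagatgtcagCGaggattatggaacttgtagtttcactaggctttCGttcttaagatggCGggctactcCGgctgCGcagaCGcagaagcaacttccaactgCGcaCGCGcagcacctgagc
Stag3 (GRCm38.p6 chr5:138280259-138280508, plus strand): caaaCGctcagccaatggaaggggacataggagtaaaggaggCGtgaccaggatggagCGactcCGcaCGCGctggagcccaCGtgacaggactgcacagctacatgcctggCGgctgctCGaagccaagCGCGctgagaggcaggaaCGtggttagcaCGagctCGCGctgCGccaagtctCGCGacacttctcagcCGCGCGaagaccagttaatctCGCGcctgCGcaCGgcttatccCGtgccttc
Ddx25 (GRCm38.p6 chr9:35558471-35558720, minus strand): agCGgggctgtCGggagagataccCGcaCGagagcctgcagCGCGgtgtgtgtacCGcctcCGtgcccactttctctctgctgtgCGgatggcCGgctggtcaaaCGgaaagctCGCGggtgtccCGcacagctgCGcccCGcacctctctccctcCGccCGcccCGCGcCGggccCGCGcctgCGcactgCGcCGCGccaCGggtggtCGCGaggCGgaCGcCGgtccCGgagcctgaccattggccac
Tdrd9 (GRCm38.p6 chr12:111971309-111971558, plus strand): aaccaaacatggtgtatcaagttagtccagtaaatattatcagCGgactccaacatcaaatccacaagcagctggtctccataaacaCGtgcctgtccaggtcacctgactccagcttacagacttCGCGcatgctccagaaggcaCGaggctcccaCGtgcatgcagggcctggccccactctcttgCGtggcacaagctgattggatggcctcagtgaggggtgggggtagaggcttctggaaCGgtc

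The 4 promoters of genes that fell hold 19, 16, 26 and 34 CpG, in the order Tdrkh, Zcwpw1, Stag3 and Ddx25, and that of Tdrd9 holds 8. An E-box was found in Stag3, 170 bases before the start, and in Tdrd9, and in none of the other 3. The CpG-rich promoters of the genes that fell with AA+2i are not particular to them. Of all 34 members with an entry, 28 had 10 or more CpG, and the median was 17. With 5 promoters this is a description only.

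**Figure D5:**
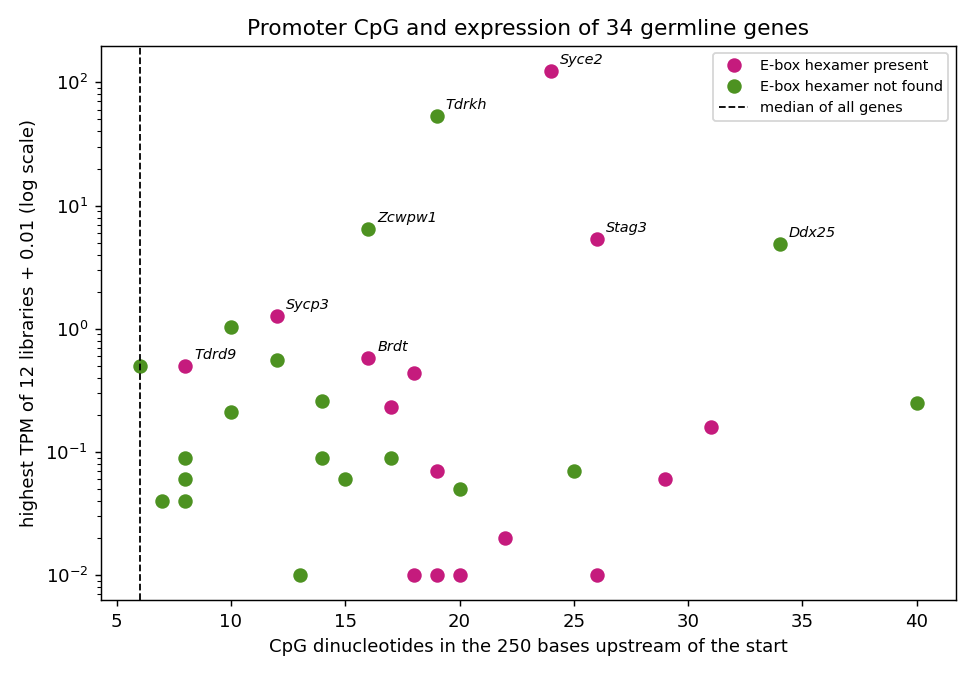
CpG dinucleotides in the 250 bases upstream of the start (horizontal axis) against the highest TPM in any of the 12 libraries plus 0.01 (vertical axis, log scale) for the 34 genes with a promoter entry. Colour gives the presence of the E-box hexamer, the dashed line is the median CpG number of all genes (6), and the 8 genes that passed the filter are named. Genes at the bottom, with no count, have 13 to 26 CpG, within the range of the expressed ones.

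A wider list of 71 other germline genes served for comparison. Of these, 59 were in the files and 36 passed the filter, and 9 were called in at least 1 contrast, beside the 11.4% of all genes tested. The list was chosen with earlier results of these data known, so setting these shares side by side is no test of it. The median log2 fold change of the 36 was 0.09 in AA, -0.28 in 2i and 0.01 in AA+2i. With AA, Tex19.1, Dmrt1 and Ooep rose, beside 0.866% of all genes tested. Tex19.1, a germline gene known for its control by promoter methylation, had a TPM of 0.28, 0.65 and 1.33 in DMSO and of 11.1, 18.1 and 19.5 in AA, with 0.33 to 0.48 in 2i and 4.56 to 6.54 in AA+2i. It rose by 4.47 on the log2 scale with AA (SE 0.50, edgeR adjusted p = 0.00238). Ooep, a maternal protein of oocytes, rose by 1.78 with AA (SE 0.36, edgeR adjusted p = 0.0366), fell by 1.86 with 2i (SE 0.36, edgeR adjusted p = 0.0157) and was 2.12 higher in AA+2i than in 2i (SE 0.36, edgeR adjusted p = 0.0225). Dmrt1, a testis transcription factor, rose by 2.53 with AA (SE 0.51, edgeR adjusted p = 0.0366).

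With AA+2i, 5 genes of that list rose against DMSO, namely Tex19.1, Dppa3, Pnldc1, Prdm14 and Rec8, beside 3.93% of all genes tested. Dppa3, a maternal factor of germ cells and early embryos also known as Stella, went from 0.06 to 0.30 TPM in DMSO to 9.18 to 19.4 in AA+2i, a log2 fold change of 6.75 (SE 0.86, edgeR adjusted p = 0.00103). The cohesin subunit Rec8 acts in the same meiotic complex as Stag3, and rose by 3.5 (SE 0.80, edgeR adjusted p = 0.0225) in the comparison in which Stag3 fell. Its TPM was 0, 0.24 and 0 in DMSO and 0.72, 0.97 and 1.53 in AA+2i, so the size of this rise rests on DMSO levels near the detection limit. Pnldc1, which trims piRNAs, rose by 2.06 (SE 0.38, edgeR adjusted p = 0.0072). Between AA and AA+2i, Ccna1 and Ooep were lower in AA+2i, beside 3.29% of all genes, and Ccnb1ip1 and Dppa3 higher, beside 2.81%. Some of these genes are expressed by pluripotent cells as well. Of the 8 pluripotency markers, Nanog, Zfp42 and Cdh1 rose with AA in the same libraries, beside 0.866% of all genes tested.

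Genes known to repress or release germline promoters were read as a further list. A list of 30 genes of DNA and H3K9 methylation, of demethylation and of the noncanonical PRC1 complex with E2F6, MGA and MAX passed the filter whole, with median log2 fold changes of 0.00, -0.37 and -0.30 in AA, 2i and AA+2i. Of them Suv39h1, an H3K9 methyltransferase, was the 1 gene called by edgeR in the 6 contrasts, falling by 0.71 on the log2 scale with AA+2i (SE 0.15, edgeR adjusted p = 0.015), in a comparison in which 4.41% of all genes fell. None was called with AA or with 2i alone by edgeR. At an unadjusted p under 0.05 there were 3 and 4 of the 30, beside 1263 and 2151 of all 13400 tested genes. DESeq2 called 1 in each, beside 454 and 1099 of all genes.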

How the data were processed

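RNA was sequenced from 12 libraries, 3 for each of 4 conditions. The authors trimmed and quality-filtered the reads, aligned them with Bowtie2 to RefSeq genes of mm9, and quantified genes with RSEM (1.2.4 in the submitters' processing notes), giving both strands equal weight. RSEM's expected counts were deposited without normalization and can be fractional. TPM, deposited beside them, are relative to the sum of each library and serve here as levels. Reads were not analysed here.

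Rounded expected counts entered the quasi-likelihood test of edgeR 4.0.16 (R 4.3.3), scaled by RLE factors, in 1 model with a mean for each condition. A gene was kept if 3 or more libraries held 10 counts. Benjamini-Hochberg adjusted p-values over all tested genes were called under 0.05, and a standard error (SE) is the size of the log2 change over the root of its F statistic. The interaction is the change with AA+2i less those with AA and 2i. The study itself used EB-seq, which was not used here. The fit was tested on simulated data.

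Full values are given for members called in any contrast, called genes of the other germline and regulator lists are named, and the other members are given by range or highest count. Members and lists were chosen with earlier results of these data known. Coordinates are from the GENCODE annotation of mm9. Alternatives were TMM factors, DESeq2 1.42.0, limma 3.58.1 on log2(TPM + 1) and log2(TPM + 0.1), other count filters, fewer libraries, a replicate block and a GC correction, which offset a curve (span 0.4) of log2 CPM against transcript GC, known for 99.16% of tested genes. One malformed TPM cell, of no member, was left out.

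The depth of 16173322 to 54392719 counts per library limits genes of a few counts. A floor of 3 counts over the 3 libraries of a condition covers counting error only.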

Additional observations from a re-analysis of the deposited data

How the results depend on the processing

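The 15 called changes of single genes kept their direction under every alternative run, and 288 of their 382 alternative values stayed past the threshold. The fewest did so for Rbm44 with AA (7 of 25), Zcwpw1 from AA to AA+2i (8 of 26) and Stag3 from AA to AA+2i (10 of 26). Piwil2 with 2i and from AA to AA+2i was called under 24 of 25, and Stag3 and Zcwpw1 with AA+2i against DMSO under 24 of 26. For all but Ddx25, the highest adjusted p came without replicate B in every condition. TMM factors left all 12 counts of members called higher or lower as they were. Without a count filter, Piwil4 was called and Stag3 and Zcwpw1 were not from AA to AA+2i.

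Requiring 10 counts in every library left Piwil2, Tdrd9 and Rbm44 untested, so that 0 members were called higher in any contrast and 0 lower with 2i. Fitting only the libraries compared gave 0 higher with AA and 1 lower from AA to AA+2i. DESeq2 called 3 lower with 2i and 2 higher with AA+2i, as calls over all genes rose from 379 to 676 and from 526 to 899. By limma on log2(TPM + 1), 1 was higher with AA, 0 from 2i to AA+2i, and 1 had a lower interaction. The GC correction gave 2 higher and 4 lower with 2i, and 2 higher with AA+2i against DMSO and against AA, while calls over all genes rose from 592 to 1643 with 2i, from 1117 to 2646 with AA+2i and from 817 to 2037 from AA to AA+2i. Together with the replicate block it gave these same counts, and 4 lower from 2i to AA+2i (Ddx25, Stag3, Tdrkh and Zcwpw1, edgeR adjusted p 0.0377 to 0.0462), where lower calls over all genes rose from 20 to 662. Without DMSO A and AA A, chosen after seeing the data, 1 was higher with AA, 2 each with 2i, with AA+2i and from AA to AA+2i, where 2 were lower. The cause of these shifts was not tested.

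The replicate block gave 1 higher with AA, 3 lower with 2i, and 2 higher with AA+2i against DMSO and against AA, while calls over all genes rose from 592 to 1782 with 2i, from 1117 to 4229 with AA+2i and from 817 to 1992 from AA to AA+2i. It also called Piwil2 lower with AA+2i (-0.73, edgeR adjusted p = 0.0325), Tdrkh and Zcwpw1 lower with 2i (edgeR adjusted p = 0.0122 and 0.0275), and Tex15 higher with AA+2i (1.88, edgeR adjusted p = 0.00701), and Rbm44 with AA lost its call (edgeR adjusted p = 0.0528). The labels do not say that the letters pair the libraries, and not every same-letter pair deviated together, so the block was kept as an alternative. Deviations of libraries of the same letter correlated by 0.401 on average (-0.588 to 0.894), and 9 of 12 libraries were closest to their own letter. Those of different letters correlated by -0.196. As deviations were taken from the mean of each condition, this value follows nearly from the first and adds little.

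Leaving out libraries, by letter or singly, the numbers called ranged from 0 to 2 higher with AA, 0 to 1 higher and 0 to 1 lower with 2i, 0 to 2 higher and 0 to 4 lower with AA+2i, 0 to 2 higher and 0 to 4 lower from AA to AA+2i, and 0 to 1 higher from 2i to AA+2i. A condition left with 2 libraries shares the spread of the others.

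The sign turned for 12 values of changes that were not called. Tdrd9 with AA (-0.17) was 0.00 and 0.01 by limma with either pseudocount. When libraries were left out, it ranged from -0.81 to 0.80 and its interaction from -0.53 to 1.18, Ddx25 with 2i from -0.71 to 0.02, Tdrkh with AA from -0.79 to 0.09, and the interaction of Zcwpw1 from -0.55 to 0.11.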

Other observations

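Markers of primordial germ cells and of pluripotent cells were read in the same libraries. Of 8 primordial germ cell markers, 7 were in the files and passed the filter. By edgeR 3 of them rose with AA+2i against DMSO, namely Dppa3, Prdm14 and Kit, beside 3.93% of all genes tested. Kit, the receptor tyrosine kinase of migrating germ cells, rose by 1.58 on the log2 scale (SE 0.19, edgeR adjusted p = 0.000856) and was also higher in AA+2i than in AA, by 1.63 (edgeR adjusted p = 0.000934). Ifitm3 made up most of the summed TPM of the list, with 629 to 2386 in the DMSO libraries. All 8 pluripotency markers passed the filter, and 4 of them rose with AA+2i against DMSO, beside 3.93% of all genes tested. They were Nanog (3.23, SE 0.36), Esrrb (3.70, SE 0.54), Zfp42 (1.72, SE 0.36) and Cdh1 (1.71, SE 0.20). Pou5f1 (-0.44, SE 0.48), Sox2 (1.05, SE 1.00), Sall4 (0.34, SE 0.22) and Lin28a (-1.02, SE 0.60) were not called. The retroviruses also encode Pou5f1 (Oct4) and Sox2, and counts per gene do not separate retroviral from endogenous RNA. A change of the endogenous copies alone was therefore not tested. The paper reports that these endogenous copies rose where AA was given, and that the retroviral ones were repressed in every condition. From AA to AA+2i, Lin28a was called lower (-2.78, edgeR adjusted p = 0.022) and Esrrb higher (2.05, edgeR adjusted p = 0.0293). Of the 10 fibroblast markers, 7 passed the filter. Col3a1 was called higher with AA+2i (2.25, SE 0.51) and Fbln2 lower (-2.71, SE 0.73), and Fbln2 alone was at 60.4 TPM in DMSO B.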
